A study of Mus musculus with 9 samples.

Results

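Chloride, bicarbonate, sodium and water cross the colonic surface through a small set of channels, exchangers, pumps and enzymes, and 10 genes of this set were followed here in intestinal epithelial cells (IECs) of the mouse colon. They were found by gene symbol among the 46095 symbols of the count table, and all 10 were present: *Slc26a3*, *Slc9a3*, *Car1*, *Car4*, *Aqp8*, *Scnn1a*, *Scnn1b*, *Scnn1g*, *Cftr* and *Slc12a2*. All 10 passed the filter on low counts, which kept 14593 genes. RNA-seq of IECs compared 4 libraries of the Smad4Vil-KO genotype, in which *Smad4* is deleted, with 5 libraries of the Smad4Vil-KO;Setd2Vil-KO genotype, in which *Setd2* is deleted as well; these are called double-knockout libraries below. Both deletions are made by Cre recombinase under the Villin promoter, which is active in epithelium along the small and large intestine, so that *Smad4* is targeted in both genotypes, and no group with intact *Smad4* was analysed here. AOM, a carcinogen, had been injected at 8 weeks of age (10 mg/kg), followed by 1 course of 2% DSS, an agent that injures the colonic epithelium, and cells were released with EDTA at 10 days. The comparison asks how the loss of *Setd2*, which encodes the methyltransferase that places H3K36me3, changed expression in epithelium without *Smad4*.

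The colon absorbs salt and water chiefly at its surface. There, *Slc9a3* (NHE3) exchanges sodium for protons and *Slc26a3* (DRA) exchanges chloride for bicarbonate, so that both together take up NaCl, and carbonic anhydrases supply the protons and bicarbonate. In the distal colon, the epithelial sodium channel ENaC, made of an alpha, a beta and a gamma subunit, takes up sodium under the control of aldosterone. Crypt cells secrete chloride: *Slc12a2* (NKCC1) loads it across the basolateral membrane and the cAMP-gated channel *Cftr* lets it leave at the apical membrane, with water following.

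Of the 10 genes, *Slc9a3* and *Cftr* rose in double-knockout libraries, that is 2 of 10 at an adjusted p under 0.05 (quasi-likelihood test of edgeR), against 6.76% of all genes tested that rose. None of the 10 fell, against 6.54% of all genes tested, and none of the 8 others passed the test (13.3% of all genes passed it in either direction). At an unadjusted p under 0.05, 3 of the 10 were higher and 0 lower, against 15.3% of all genes in each direction. DESeq2 called 3 higher and 0 lower, against 10% and 9.12% of all genes, and limma-voom 2 higher and 1 lower, against 9.61% and 10.5%. Both *Slc9a3* and *Cftr* were higher in every double-knockout library than in every Smad4Vil-KO library, which held for 8.34% of all genes tested. None of the 10 genes was lower in every double-knockout library, which held for 8.87% of all genes tested. The estimates of 5 genes were positive and those of 5 negative, with a median log2 fold change of -0.12 (all genes tested -0.0006). In bulk RNA, fewer cells of a type and less RNA per cell cannot be told apart.

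The sequences of 250 bases before the RefSeq start site (GRCm38.p6) are shown for *Slc9a3* and *Cftr*, because these are the genes that rose, and for *Slc26a3*, because it is the partner of *Slc9a3* in NaCl uptake and did not rise. Capitals mark matches on either strand to GGGCGG (a GC box), CACGTG (an E-box), CAAAGNNCA (HNF4-type) or TTTATN (CDX-type).
*Slc9a3*, chr13:74121163-74121412, plus strand: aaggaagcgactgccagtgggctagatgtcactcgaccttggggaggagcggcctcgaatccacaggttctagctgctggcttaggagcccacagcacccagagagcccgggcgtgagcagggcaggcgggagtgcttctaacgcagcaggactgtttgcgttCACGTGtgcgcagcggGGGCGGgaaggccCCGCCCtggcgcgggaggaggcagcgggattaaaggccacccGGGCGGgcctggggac
*Cftr*, chr6:18170437-18170686, plus strand: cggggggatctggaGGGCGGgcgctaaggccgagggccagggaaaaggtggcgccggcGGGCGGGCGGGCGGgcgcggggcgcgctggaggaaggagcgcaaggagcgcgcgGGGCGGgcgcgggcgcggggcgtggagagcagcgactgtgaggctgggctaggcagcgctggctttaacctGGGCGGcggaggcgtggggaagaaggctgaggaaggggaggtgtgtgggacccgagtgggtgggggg
*Slc26a3*, chr12:31437969-31438218, plus strand: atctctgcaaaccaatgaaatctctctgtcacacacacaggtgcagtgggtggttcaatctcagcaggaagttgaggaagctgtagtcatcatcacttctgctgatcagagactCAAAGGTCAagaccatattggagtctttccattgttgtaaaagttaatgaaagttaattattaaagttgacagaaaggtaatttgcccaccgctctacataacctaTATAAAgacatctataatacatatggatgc
Of the 10 genes, 7 had a sequence in the RefSeq promoter set, and *Car1*, *Scnn1a* and *Slc12a2* did not. The *Slc9a3* sequence held 3 GC boxes and 1 E-box at a GC content of 67.6%. The *Cftr* sequence held 6 GC boxes, 3 of them overlapping in 1 run, at a GC content of 76.4%, above that of 97.0% of all promoters of this length. The *Slc26a3* sequence held no GC box, 1 HNF4-type match and 1 CDX-type match at a GC content of 38.8%, and the letters of its CDX-type match, TATAAA as printed, are also those of a TATA box. Among 32851 promoters of this length (median GC content 52.4%), 32.7% held a GC box, 6.02% an E-box, 5.49% an HNF4-type and 37.2% a CDX-type match. Of the sequences not shown, *Scnn1b* held 1 GC box, *Scnn1g* 2 GC boxes and 1 CDX-type match, and *Aqp8* 1 E-box and 1 CDX-type match. *Car4* held no match. None of these genes rose, so GC boxes and E-boxes also lay before genes without an increase. These matches are letters in a window and were tested for no factor.

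RNA of *Setd2* was lower in double-knockout libraries, but counts per gene do not show the deletion itself. *Setd2* was 112.9 ± 9.45 CPM (TMM-normalized counts scaled to a common library size, mean ± SD, n = 4) in Smad4Vil-KO and 66.1 ± 14.7 CPM (n = 5) in double-knockout libraries, and was lower in every double-knockout library (log2 fold change -0.77, SE 0.14, adjusted p = 0.00756). *Smad4*, which is targeted in both genotypes, was 92.7, 54.3, 54.4 and 55.4 CPM in Smad4Vil-KO and 60.1, 113.8, 38.2, 40.5 and 98.7 CPM in double-knockout libraries (adjusted p = 0.819), and with no group of intact *Smad4* its deletion could not be checked. Double-knockout replicate 2 had the highest *Smad4* of all libraries and, at 87.1 CPM, the highest *Setd2* of the double-knockout libraries. Total counts per library were 12487129 to 17120202, so that 1 count was worth 0.0594 to 0.0794 CPM after TMM normalization, and the 10 genes held 0.403% to 0.707% of a library's counts. Counts of 4 Y-linked genes summed to 3857 to 4907 in double-knockout replicates 1, 2 and 5 and to at most 28 in the other 6 libraries, so the genotypes differ in this respect too. Double-knockout replicates 1 and 2 stood apart from replicates 3, 4 and 5 on the second principal component (18.6% of the variance). Values without these libraries are given where that changed a call.

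The estimates of the apical exchangers had opposite signs, and only that of *Slc9a3* passed the test. *Slc9a3* (chr13:74121457-74169442, plus strand, GRCm38) was 312, 227, 250 and 193 CPM in Smad4Vil-KO replicates 1 to 4. It was 559, 885, 360, 401 and 439 CPM in double-knockout replicates 1 to 5. The lowest double-knockout library was above the highest Smad4Vil-KO library, and replicate 2 was far above the other 4. Its mean went from 246 ± 49.9 (SD, n = 4) to 529 ± 212 CPM (SD, n = 5), a 2.15-fold increase (log2 fold change 1.11, SE 0.25, adjusted p = 0.0188), and 6.48% of all genes tested had a larger change in either direction.

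The increase in *Slc9a3* kept its direction in all 21 other fits but not its call in each. Without Smad4Vil-KO replicates 2, 3 or 4 in turn, the adjusted p was 0.0529, 0.0580 and 0.0567. Without the 3 libraries with high Y-linked counts, the log2 fold change was 0.64 (adjusted p = 0.0240), and with a term for them it was 0.63 (adjusted p = 0.145). Those 3 libraries are all double-knockout, so both fits set double-knockout replicates 3 and 4 against Smad4Vil-KO. They differ in the spread used and are not separate checks of the fold change. Without double-knockout replicates 1 and 2 it was 0.71 (adjusted p = 0.0130). Genes of absorptive cells of the small intestine, where *Slc9a3* is known to be expressed as well, were also higher in double-knockout libraries, with summed levels of 1372, 1770, 973, 1634 and 605 CPM in replicates 1 to 5 against 403 to 502 CPM in Smad4Vil-KO. With only the 2 double-knockout libraries where that sum was under 1000 CPM, replicates 3 and 5, both still above every Smad4Vil-KO library in that sum, the log2 fold change of *Slc9a3* was 0.70 (adjusted p = 0.0426). The part of these cells in the increase was not tested.

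*Slc26a3* (chr12:31390871-31473917, plus strand), whose loss in humans causes congenital chloride diarrhoea, was 970, 618, 744 and 732 CPM in Smad4Vil-KO and 317, 658, 763, 386 and 668 CPM in double-knockout libraries. Replicates 1 and 4 of the double knockout were below every Smad4Vil-KO library, and the other 3 were within their range. The means were 766 ± 148 and 559 ± 195 CPM, and the estimate did not pass the test (log2 fold change -0.46, SE 0.25, adjusted p = 0.236, 95% confidence interval -0.997 to 0.09). The gene body overlaps a processed pseudogene, Gm9359.

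Within a library, the ratio of *Slc26a3* to *Slc9a3* counts is free of the scaling between libraries. It was 3.11, 2.72, 2.97 and 3.79 in Smad4Vil-KO replicates 1 to 4. It was 0.568, 0.744, 2.12, 0.963 and 1.52 in double-knockout replicates 1 to 5. All double-knockout ratios were lower than all Smad4Vil-KO ratios, and in replicates 1, 2 and 4 *Slc9a3* had more counts than *Slc26a3*. The mean log2 ratio was lower by 1.56 (difference -1.56, exact two-sided permutation p = 0.0159, the smallest that relabelling the 9 libraries allows, n = 4 and 5; Benjamini-Hochberg adjusted p = 0.0476 over the 6 ratios computed). Without the 3 libraries with high Y-linked counts the difference was -1.13, and only 15 labellings remain there, so that no p under 0.133 is possible. With any 1 library left out the difference was -1.82 to -1.34. The exact permutation test says nothing on these smaller sets, since with 8 libraries the smallest adjusted p that a pair of such ratios can reach is 0.0857 or 0.107.

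**Figure D1:**
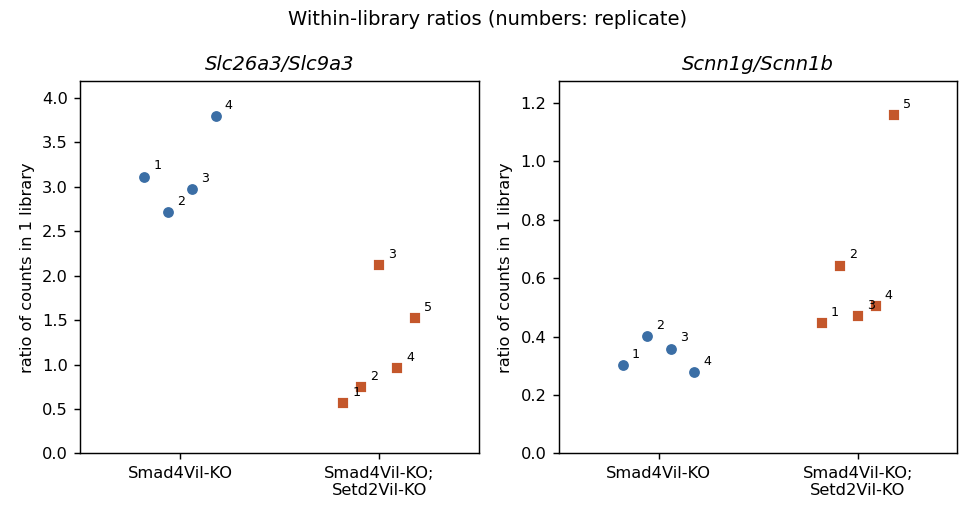
Ratio of counts of *Slc26a3* to *Slc9a3* (left) and of *Scnn1g* to *Scnn1b* (right) in each library, on linear axes from 0, with circles for Smad4Vil-KO, squares for double-knockout libraries and the replicate number beside each point. The left ratios lie between 2.72 and 3.79 in Smad4Vil-KO and between 0.568 and 2.12 in double-knockout libraries, and the right ratios also do not overlap.

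The carbonic anhydrases supply bicarbonate and protons to these exchangers, *Car1* from the cytosol and *Car4* from the cell surface. *Car1* (chr3:14766216-14808368, minus strand) was the most abundant of the 10 genes, at 1180, 3379, 2902 and 2053 CPM in Smad4Vil-KO and at 956, 1318, 4181, 2499 and 3539 CPM in double-knockout libraries. Its levels varied widely among the double-knockout libraries, where replicates 1 and 2 were low and replicates 3 and 5 high. The genotypes overlapped throughout (log2 fold change 0.07, SE 0.43, adjusted p = 0.929, 95% confidence interval -0.87 to 1.01), and the sign of the estimate turned when Smad4Vil-KO replicate 1 or double-knockout replicates 3 or 5 were left out. The gene overlaps a processed pseudogene, Gm16399, on the same strand.

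*Car4* (chr11:84957786-84966044, plus strand) was steady in Smad4Vil-KO, at 595, 494, 517 and 605 CPM. In double-knockout libraries it was 235, 610, 434, 358 and 412 CPM. Replicate 2 was the highest of all 9 libraries and the other 4 were below every Smad4Vil-KO library. The means were 553 ± 55.5 and 410 ± 136 CPM, and over all libraries the difference did not pass the test (log2 fold change -0.43, SE 0.21, adjusted p = 0.196). Without double-knockout replicate 2, *Car4* was lower with an adjusted p of 0.0475 (log2 fold change -0.62). It also passed the test without replicates 1 and 2 (log2 fold change -0.46, adjusted p = 0.0196), without the libraries with high Y-linked counts (-0.48, adjusted p = 0.0256) and in limma-voom with quality weights, which gives less weight to deviating libraries (-0.47, adjusted p = 0.0416).

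*Aqp8* (chr7:123462291-123468004, plus strand), a water channel of surface colonocytes, was 558, 346, 444 and 574 CPM in Smad4Vil-KO and 287, 654, 342, 265 and 393 CPM in double-knockout libraries. As for *Car4*, double-knockout replicate 2 was the highest of all, and replicates 1, 3 and 4 were below every Smad4Vil-KO library. The means were 481 ± 107 and 388 ± 157 CPM, with no call over all libraries (log2 fold change -0.31, SE 0.25, adjusted p = 0.437). Without the libraries with high Y-linked counts, which leaves double-knockout replicates 3 and 4, the log2 fold change was -0.66 (adjusted p = 0.0465).

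**Figure D2:**
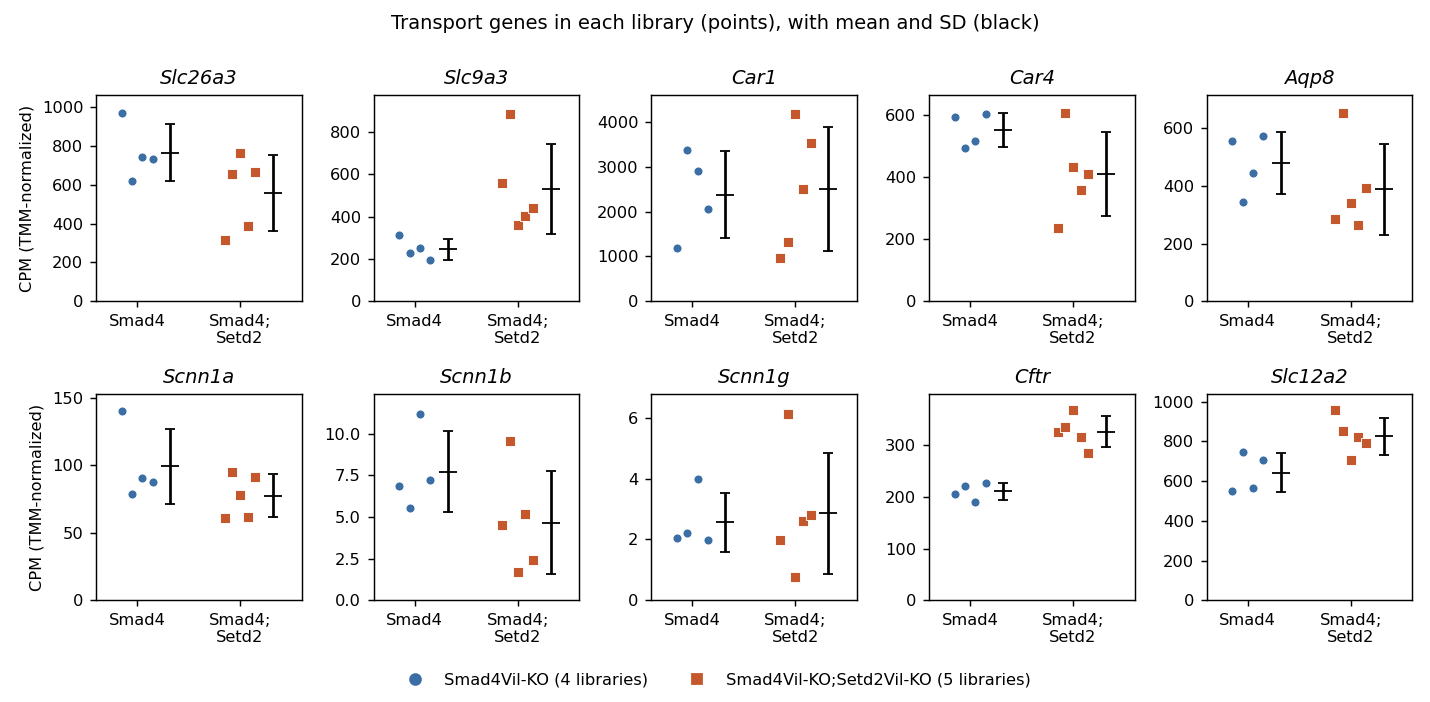
CPM of each of the 10 genes in each library, 1 panel per gene with its own linear axis from 0, with circles for the 4 Smad4Vil-KO and squares for the 5 double-knockout libraries in replicate order. Black bars give the mean and SD. *Slc9a3* and *Cftr* are the panels in which the genotypes do not overlap.

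The ENaC subunits were expressed at very different levels. *Scnn1a* (alpha; chr6:125320659-125344943, plus strand) was 139.9, 78.4, 90.8 and 87.3 CPM in Smad4Vil-KO and 60.6, 95.1, 78.0, 61.7 and 91.0 CPM in double-knockout libraries. The genotypes overlapped, and Smad4Vil-KO replicate 1 was the highest library (means 99.1 ± 27.7 and 77.3 ± 16.0 CPM, log2 fold change -0.36, SE 0.19, adjusted p = 0.225). *Scnn1b* (beta; chr7:121865038-121918514, plus strand) and *Scnn1g* (gamma; chr7:121734479-121768475, plus strand) are neighbours on chromosome 7 and were both rare.

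*Scnn1b* had 107, 93, 182 and 91 counts in Smad4Vil-KO and 70, 134, 24, 66 and 31 in double-knockout libraries. Replicate 2 of the double knockout was within the Smad4Vil-KO range and the other 4 were below it, in counts and in CPM. The means were 7.70 ± 2.43 and 4.66 ± 3.08 CPM (log2 fold change -0.72, SE 0.43, adjusted p = 0.275). Without double-knockout replicates 1 and 2, the log2 fold change was -1.32 (adjusted p = 0.0450), and with replicates 3 and 5 alone, the 2 double-knockout libraries with the fewest *Scnn1b* counts, it was -1.91 (adjusted p = 0.0173). It was -0.48 without Smad4Vil-KO replicate 3, -0.50 without double-knockout replicate 3 and -0.55 without double-knockout replicate 5, and no call was made with any 1 library left out. *Cog7* lies on the opposite strand over part of *Scnn1b*, and whether counting used strand is not given in the sources used here.

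*Scnn1g* had 32, 37, 65 and 25 counts in Smad4Vil-KO and 31, 86, 11, 33 and 36 in double-knockout libraries. These ranges overlapped (means 2.56 ± 0.961 and 2.85 ± 1.99 CPM, log2 fold change 0.15, SE 0.48, adjusted p = 0.859), and without double-knockout replicate 2 the sign turned (-0.33). The spread among double-knockout libraries was wide (coefficient of variation 69.7%), and the 95% confidence interval of the log2 fold change reached from -0.90 to 1.21.

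Between the beta and gamma subunits, the ratio of *Scnn1g* to *Scnn1b* counts was 0.302, 0.401, 0.359 and 0.279 in Smad4Vil-KO and 0.447, 0.643, 0.469, 0.504 and 1.16 in double-knockout libraries. Every double-knockout ratio was higher, replicate 5 by most, although *Scnn1g* and *Scnn1b* had only 36 and 31 counts there (log2 difference 0.86, exact two-sided permutation p = 0.0159, n = 4 and 5, adjusted p = 0.0476 over the 6 ratios). With any 1 library left out the log2 difference was 0.62 (without double-knockout replicate 5) to 0.97, and without the libraries with high Y-linked counts 0.55. These sets are too small for an adjusted p under 0.05, as for the ratio of the exchangers, so that the call rests on all 9 libraries together. The ratios to the alpha subunit did not pass the test, with log2 differences of -0.58 for *Scnn1b* to *Scnn1a* (exact permutation p = 0.381) and 0.28 for *Scnn1g* to *Scnn1a* (exact permutation p = 0.619), and the second of these turned to -0.29 without the libraries with high Y-linked counts.

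Of the genes of chloride secretion, *Cftr* (chr6:18170687-18322768, plus strand) rose. It was 205, 221, 191 and 227 CPM in Smad4Vil-KO replicates 1 to 4. It was 325, 335, 367, 317 and 285 CPM in double-knockout replicates 1 to 5. The groups were well apart and tight, with means of 211 ± 16.2 and 326 ± 29.8 CPM, a 1.54-fold increase (log2 fold change 0.63, SE 0.09, adjusted p = 0.00224). *Cftr* had the smallest variation of the 10 genes in both genotypes (coefficient of variation 7.66% and 9.14%). It passed the test in all 21 other fits (log2 fold change 0.59 to 0.70, adjusted p at most 0.0194), including those without the libraries with high Y-linked counts (0.70) and with high small intestine genes (0.63). An antisense gene, Gm15592, and a processed pseudogene, Gm15595, lie within the *Cftr* locus.

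*Slc12a2* (chr18:57878678-57946821, plus strand) was 551, 746, 566 and 705 CPM in Smad4Vil-KO and 957, 851, 704, 821 and 793 CPM in double-knockout libraries. Only double-knockout replicate 3 fell within the Smad4Vil-KO range. The means were 642 ± 98.2 and 825 ± 92.2 CPM (log2 fold change 0.36, SE 0.12, unadjusted p = 0.0132, adjusted p = 0.0755 in edgeR), while DESeq2 gave an adjusted p of 0.0216 for a log2 fold change of 0.37. The ratio of *Cftr* to *Slc12a2* was 0.373, 0.296, 0.338 and 0.322 in Smad4Vil-KO and 0.340, 0.394, 0.522, 0.386 and 0.360 in double-knockout libraries. These ratios overlapped in part (log2 difference 0.26, exact permutation p = 0.0635, adjusted p = 0.127), and so did those of *Car1* to *Car4* (log2 difference 0.46, exact permutation p = 0.429).

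Per kilobase of exon, the order of the levels was *Car1*, *Aqp8*, *Car4*, *Slc26a3*, *Slc12a2*, *Slc9a3*, *Cftr*, *Scnn1a*, *Scnn1b* and *Scnn1g* in Smad4Vil-KO, from a mean of 1906 CPM per kb for *Car1* to 0.855 for *Scnn1g*. In this order *Aqp8* and *Car4*, *Slc12a2* and *Slc9a3*, and *Cftr* and *Scnn1a* did not differ beyond their spread. In double-knockout libraries *Slc9a3* moved from position 6 to position 4, at 96.1 CPM per kb against 44.6 in Smad4Vil-KO, and it overlapped *Car4* above it and *Slc26a3* below it. *Cftr*, at 27.2 CPM per kb, overlapped *Scnn1a* in Smad4Vil-KO and lay above it in every double-knockout library, at 42.0 CPM per kb. *Scnn1b* and *Scnn1g* did not overlap in Smad4Vil-KO, at 2.92 and 0.855 CPM per kb, and overlapped in double-knockout libraries.

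**Figure D3:**
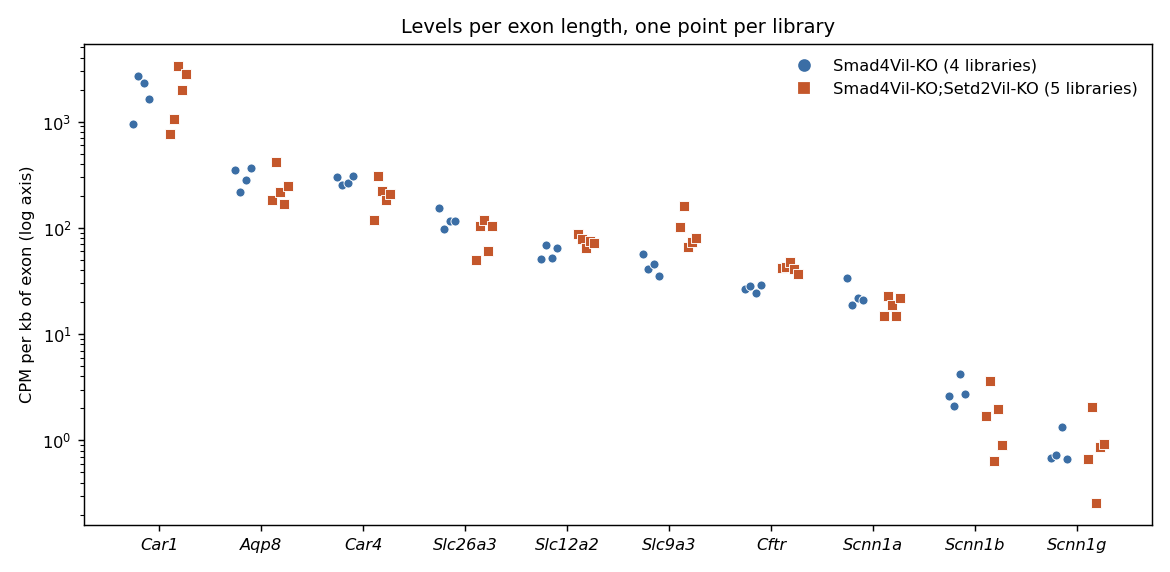
CPM per kilobase of exon (log axis) of the 10 genes in each library, in the order of their Smad4Vil-KO means, with circles for Smad4Vil-KO and squares for double-knockout libraries. Levels run from 1906 CPM per kb on average for *Car1* to 0.855 for *Scnn1g* in Smad4Vil-KO, and *Slc9a3* reaches the level of *Slc26a3* in double-knockout libraries.

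The patterns over the 9 libraries were compared with those of 13699 genes of at least 1 CPM, by the root mean square difference of log2 CPM after each gene was centred on its mean. Closest to *Cftr* were *C130074G19Rik* (0.0696), *Cstf2* (0.0865) and *Rpl17-ps5* (0.0867). Closest to *Slc9a3* were *Upp1* (0.173), *Gm41456* (0.179) and *Mill2* (0.209), and closest to *Slc12a2* were *Ttc1* (0.0818), *Qser1* (0.0834) and *Zfr* (0.0904). Among the 10 genes themselves, the nearest to *Slc26a3* was *Car4* (0.246), *Car4* and *Aqp8* were nearest to each other (0.241), *Scnn1a* was nearest to *Slc26a3* (0.247), and *Cftr* and *Slc12a2* were nearest to each other (0.220). By rank among all genes compared, *Car4* was number 26 for *Slc26a3*, *Aqp8* number 59 for *Car4* and *Car4* number 24 for *Aqp8*. *Slc26a3* was number 391 for *Scnn1a*, *Slc12a2* number 528 for *Cftr* and *Cftr* number 1665 for *Slc12a2*. A gene without change would lie at 0.247 from *Slc12a2*, 0.329 from *Cftr*, 0.34 from *Scnn1a*, 0.421 from *Car4*, 0.434 from *Aqp8* and 0.477 from *Slc26a3*. The genes closest to *Slc26a3*, *Car4* and *Aqp8* were *Gnb5* (0.152), *Rbbp9* (0.168) and *2310009B15Rik* (0.165). *Car1* was near none of the other 9, the nearest being *Slc26a3* at 0.754, and its closest gene was *Sptssb* (0.212). *Scnn1a* was closest to *2900076A07Rik* (0.137), and the rare *Scnn1b* and *Scnn1g* had more distant neighbours, *Mypopos* (0.337) and *Rhbg* (0.372).

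Other genes of the same transport systems were read from 8 lists of 115 genes, of which 113 were in the table and 81 passed the filter. Of these 81, 5 rose and 8 fell, against 6.76% and 6.54% of all genes tested, with a median log2 fold change of -0.08. Of the 81, 5 were higher and 7 were lower in every double-knockout library than in every Smad4Vil-KO library, against 8.34% and 8.87% of all genes tested.

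Among regulators of sodium-proton exchange, 0 of 9 genes tested rose and 2 fell, against 6.76% and 6.54% of all genes tested. *Slc9a3r2*, which encodes the scaffold NHERF2 that binds NHE3, fell from 9.85 ± 1.33 to 5.75 ± 1.15 CPM (log2 fold change -0.78, SE 0.18, adjusted p = 0.0182), the opposite direction to *Slc9a3*. Of 5 anion and bicarbonate transporters tested, none passed the test. Of 6 carbonic anhydrases tested, *Car8* rose from 53.8 ± 13.3 to 109 ± 8.63 CPM (log2 fold change 1.02, SE 0.15, adjusted p = 0.00215). *Car8* encodes a protein of the family without catalytic activity. Of 3 aquaporins tested, *Aqp1* was higher (64.6 ± 14.6 and 97.5 ± 16.9 CPM, adjusted p = 0.0352).

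Among 14 tested regulators of ENaC, 2 rose and 2 fell, against 6.76% and 6.54% of all genes tested. *Nr3c1*, the glucocorticoid receptor, was higher by 0.36 on the log2 scale (119 ± 13.8 and 153 ± 10.7 CPM, adjusted p = 0.0285), and *Spint1*, an inhibitor of membrane serine proteases, at 226 ± 23.9 and 302 ± 30.02 CPM (0.42, adjusted p = 0.0220). *Hsd11b2*, which inactivates cortisol and so keeps the mineralocorticoid receptor selective for aldosterone, was at 181 ± 19.5 and 129 ± 24.4 CPM (-0.49, adjusted p = 0.0392). *Tmprss2*, a membrane serine protease, was at 961 ± 60.2 and 606 ± 179 CPM (-0.67, adjusted p = 0.0396).

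Among 20 tested genes of chloride secretion and its control, 0 rose and 2 fell, against 6.76% and 6.54% of all genes tested. *Wnk4*, a kinase that regulates chloride cotransporters through STK39 and OXSR1, fell from 54.8 ± 3.27 to 33.3 ± 5.58 CPM (log2 fold change -0.72, SE 0.12, adjusted p = 0.00396) and passed the test in all 21 other fits. *Clca3a2*, a calcium-activated chloride channel regulator, was at 48.4 ± 14.6 and 21.5 ± 9.45 CPM (-1.17, adjusted p = 0.0382).

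Of 13 tested genes of cAMP and cGMP control, *Guca2b*, which encodes uroguanylin, a peptide that raises cGMP through guanylate cyclase C and drives chloride secretion through CFTR, rose. It was 11.9, 22.9, 13.1 and 9.77 CPM in Smad4Vil-KO and 46.6, 58.4, 39.6, 47.3 and 36.5 CPM in double-knockout libraries. The groups were far apart (log2 fold change 1.66, SE 0.24, adjusted p = 0.00203), and *Guca2b* passed the test in all 21 other fits, as did *Car8*. The more abundant *Guca2a* and *Gucy2c* of the same list did not pass the test. *Guca2a* was at 573 ± 59.5 and 707 ± 116 CPM (adjusted p = 0.139) and *Gucy2c* at 376 ± 22.6 and 405 ± 24.5 CPM (adjusted p = 0.378). Among 11 tested sodium pumps and their partners, 0 rose and 2 fell, against 6.76% and 6.54% of all genes tested.

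Of the 10 genes named from these lists for passing the test, *Guca2b*, *Car8* and *Wnk4* passed it with any 1 library left out. *Slc9a3r2* lost its call without Smad4Vil-KO replicate 1 (adjusted p = 0.0611). *Spint1* lost it without Smad4Vil-KO replicates 1, 2 or 4 (adjusted p = 0.0622 to 0.0660), and *Nr3c1* without Smad4Vil-KO replicates 1, 3 or 4 or double-knockout replicates 2 or 4 (0.0523 to 0.0915). *Aqp1* lost it without Smad4Vil-KO replicates 1, 3 or 4 or double-knockout replicates 1, 2 or 4 (0.0503 to 0.0989). *Clca3a2* passed only without double-knockout replicates 3 or 5 (otherwise 0.0524 to 0.104), *Hsd11b2* only without Smad4Vil-KO replicate 2 or double-knockout replicates 4 or 5 (otherwise 0.0598 to 0.122), and *Tmprss2* only without double-knockout replicate 5 (otherwise 0.0564 to 0.0983). Without the libraries with high Y-linked counts, *Spint1*, *Aqp1*, *Clca3a2* and *Hsd11b2* lost their calls (adjusted p = 0.0814, 0.0925, 0.0528 and 0.0619), and without double-knockout replicates 1 and 2, *Aqp1* and *Hsd11b2* did (0.0681 and 0.0831). With only the libraries low in small intestine genes, 7 of the 10 lost theirs. The log2 fold changes of *Slc9a3r2* (-0.73, adjusted p = 0.0962), *Hsd11b2* (-0.53, 0.0834), *Spint1* (0.35, 0.125) and *Nr3c1* (0.30, 0.153) were near those from all libraries, and those of *Aqp1* (0.44, 0.165), *Clca3a2* (-0.75, 0.111) and *Tmprss2* (-0.34, 0.141) were smaller. With a term for Y-linked counts, *Spint1*, *Nr3c1*, *Aqp1*, *Clca3a2*, *Hsd11b2* and *Tmprss2* lost theirs (0.0860 to 0.238). That fit compares the same libraries as the one without high Y-linked counts and is no separate check of the fold changes.

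**Figure D4:**
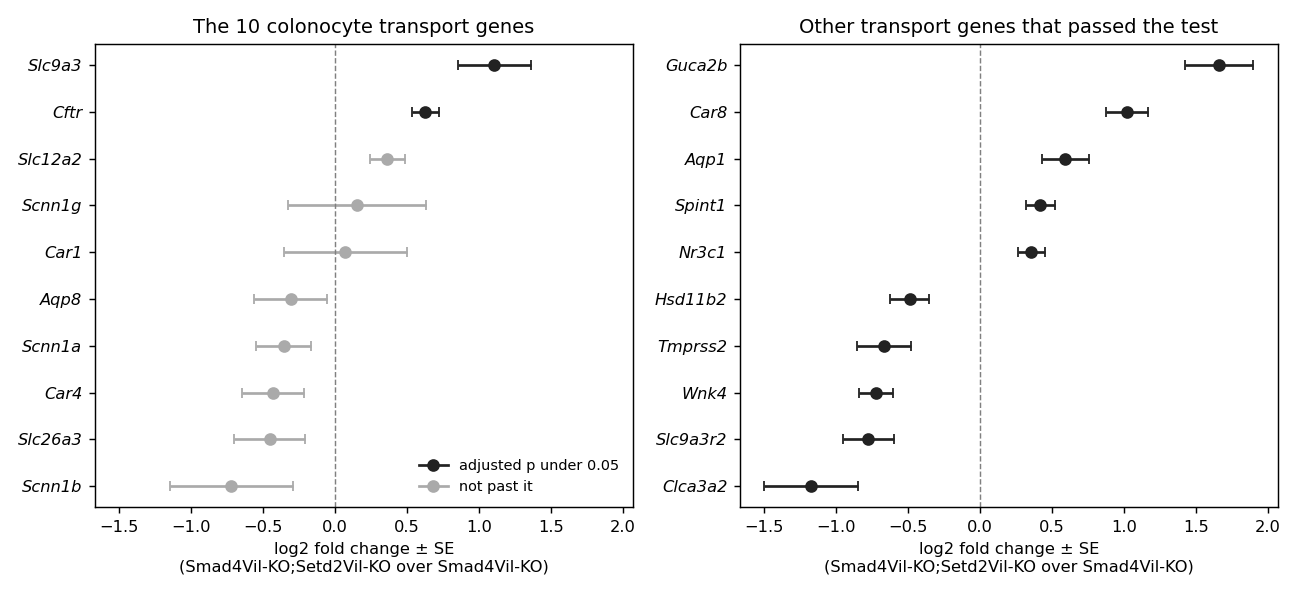
Log2 fold change of double-knockout over Smad4Vil-KO libraries, with its SE, for the 10 genes (left) and for 10 other transport genes that passed the test (right). Black marks an adjusted p under 0.05 in edgeR and grey a larger one. On the left *Slc9a3* (1.11) and *Cftr* (0.63) are black, and on the right *Guca2b* (1.66) and *Clca3a2* (-1.17) lie farthest from 0 on either side.

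Markers of the cells that a colon epithelial preparation could hold were read beside these genes. Their part in the results was not tested. The counts of marker genes that rose or fell stand against 6.76% and 6.54% of all genes tested. The 15 surface colonocyte genes summed to 22507 to 26836 CPM in Smad4Vil-KO and 16791 to 24076 CPM in double-knockout libraries, 1 rose and 1 fell, and the most abundant, *Lypd8*, was at 11616 and 8966 CPM (adjusted p = 0.0904); the sum was carried mainly by *Lypd8*, *Muc3* and *Ceacam1*. Of 10 tested genes of small intestinal absorptive cells, 7 rose, against 6.76% of all genes tested. The most abundant of them in Smad4Vil-KO, *Slc5a1* (189 and 253 CPM, adjusted p = 0.0946) and *Apob* (188 and 343 CPM, adjusted p = 0.119), did not pass the test, and those that rose included *Slc10a2*, the ileal bile acid transporter (from 18.5 ± 9.45 to 204 ± 90.5 CPM, 3.46 on the log2 scale, adjusted p = 0.00141), while *Apoa4*, which did not pass the filter, had no count in any Smad4Vil-KO library and 272, 528, 1, 7 and 0 counts in double-knockout replicates 1 to 5. Of 8 enteroendocrine genes, 5 rose, including *Chgb* (from 33.7 ± 11.3 to 101 ± 17.6 CPM, 1.58 on the log2 scale, adjusted p = 0.00165), while *Insl5* was lower in every double-knockout library without passing the test (-0.63, adjusted p = 0.0668) and *Gcg* was at 16.3 and 17.7 CPM (adjusted p = 0.693); the list summed to 80.6 to 108 CPM and 173 to 259 CPM. *Insl5* and *Gcg* were named after their values were seen. Of 9 goblet cell genes, 1 fell, the mucin *Muc2* (6143 and 2003 CPM, log2 fold change -1.62, adjusted p = 0.000542), and the list summed to 11963 to 31156 CPM and 4412 to 13711 CPM. Much of the highest sum in each genotype was *Clca1*, at 16018 CPM in Smad4Vil-KO replicate 1 and 6740 CPM in double-knockout replicate 5 (adjusted p = 0.187). Of 10 stem and progenitor genes, 1 rose and 1 fell (442.8 to 515 and 384 to 550 CPM), and of 10 proliferation genes none passed the test (1146 to 1353 and 1126 to 1788 CPM). None passed the test among 4 deep crypt secretory genes (701 to 5312 and 558 to 4942 CPM), 5 tuft cell genes (46.8 to 80.6 and 15.4 to 86.7 CPM), 13 leukocyte genes (71.4 to 184 and 57.7 to 146 CPM) and 6 stromal, muscle and endothelial genes (22.6 to 41.5 and 29.2 to 79.4 CPM). All sums of marker lists also include list genes that were not tested. They cover 6 tuft cell genes, 13 stromal, muscle and endothelial genes and 13 genes of small intestinal absorptive cells.

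**Figure D5:**
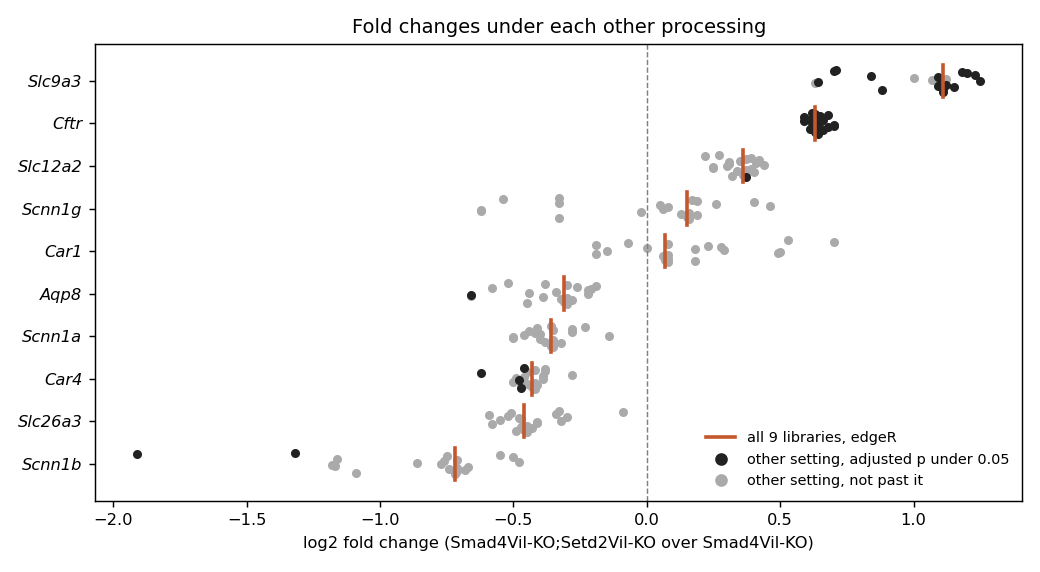
Log2 fold change of double-knockout over Smad4Vil-KO libraries for the 10 genes in 21 other fits (points; black for an adjusted p under 0.05) beside the value from all 9 libraries in edgeR (orange bar). *Cftr* stays between 0.59 and 0.70, *Slc9a3* runs from 0.63 to 1.25, and the points of *Car1* and *Scnn1g* lie on both sides of 0.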

How the data were processed

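RNA-seq of colon IECs was analysed from 4 Smad4Vil-KO and 5 Smad4Vil-KO;Setd2Vil-KO libraries, grouped by the genotype in the labels. The authors deposited whole-number counts per gene symbol (46095 symbols, 27 of them turned into dates), without normalization or pooling. Per the submitters' processing notes, HISAT2 2.0 and mm10 were used. The counting program and its use of strand are not given in the sources used here. Libraries of 1 genotype differed beyond sampling noise (chi-square of at least 9.92 per gene), and were counted separately. Nothing in the labels says that they came from separate mice, so the p-values measure the spread between libraries.

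Counts were filtered with filterByExpr, normalized with TMM and tested with the quasi-likelihood test of edgeR 4.0.16 in R 4.3.3, over all 9 libraries without covariates, with Benjamini-Hochberg adjustment over all 14593 genes and a threshold of 0.05. DESeq2 1.42.0, limma 3.58.1 (voom), other normalizations and filters, a replicate block, a term for Y-linked counts (high above 1000) and leaving out libraries were alternatives. The fit with the Y-linked term takes the genotype difference from the same libraries as the fit without those high in Y-linked counts. The restriction by small intestine genes and the omission of double-knockout replicates 1 and 2 were chosen after seeing the data. Ratios used counts plus 0.5 and an exact permutation test. Scripts were tested on simulated data.

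The 10 genes, the 8 transport lists and the 10 marker lists were chosen with earlier results of these data known. Genes named are the 10, the 2 targeted genes, list genes with an adjusted p under 0.05 (of 13 such genes, 10 are named and the others are not reported here), up to 3 of the most abundant markers per list, the nearest patterns, and outlying values. *Apoa4*, *Guca2a* and *Gucy2c* were named after their values were seen. Loci and exon lengths are from GENCODE M21 (GRCm38), promoters from RefSeq. A count of 1 was worth 0.0594 to 0.0794 CPM.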

Additional observations from a re-analysis of the deposited data

Results flagged for a closer look

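Over the 50 groups of 4 or 5 libraries examined for the 10 genes, the 2 targeted genes and the 13 other transport genes that passed the test, 4 had 1 library far from the others by Dixon's criterion, which chance alone meets in about 1 of 20 groups. *Scnn1g* was at 3.99 CPM in Smad4Vil-KO replicate 3, against 1.98 to 2.20 CPM in the other 3. *Smad4* was at 92.7 CPM in Smad4Vil-KO replicate 1, against 54.3 to 55.4 CPM. *Spint1* was at 262 CPM in Smad4Vil-KO replicate 3, against 212 to 217 CPM, which places it inside the double-knockout range. *Aqp1* was at 127 CPM in double-knockout replicate 2, against 86.9 to 96.1 CPM.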

How the results depend on the processing

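In 21 other fits, 25 genes gave 523 values, of which 419 kept direction and side of the threshold, 78 lost and 8 gained a call and 18 changed sign. Of the 10 genes, the number that rose (2) was 1 with a term for Y-linked counts and 1 to 2 with a library left out. The number that fell (0) was 1 in limma-voom, 2 without libraries of high Y-linked counts, 1 where small intestine genes summed to under 1000 CPM, 2 without double-knockout replicates 1 and 2, and 0 to 1 with a library left out. Of the other transport genes, 5 rose and 8 fell. The first count was 2 with the Y-linked term, 2 with low small intestine genes, 3 at a fold change over 1.5 with unadjusted p, and 2 to 5 with a library left out. The second was 5 with at least 10 counts in every library, 16 without high Y-linked counts, 2 with low small intestine genes, 13 at an adjusted p under 0.1, and 3 to 13 with a library left out. All genes called (1941) were 2927 in limma-voom, 1285 with the Y-linked term, 2930 without high Y-linked counts, 924 with low small intestine genes, 3107 at an adjusted p under 0.1, and 847 (without Smad4Vil-KO replicate 3) to 2696 (without double-knockout replicate 5) with a library left out.

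The log2 fold change of *Car1* turned to -0.19 with the replicate block and was -0.19 to 0.29 with a library left out. That of *Scnn1g* turned to -0.33 in limma-voom, -0.02 with the replicate block, -0.62 with the Y-linked term and without high Y-linked counts, -0.54 with low small intestine genes and -0.33 without double-knockout replicates 1 and 2. With a library left out it was -0.33 to 0.46. That of *Smad4* turned to -0.18, -0.13, -0.71, -0.70 and -0.12 in limma-voom, with the replicate block, the Y-linked term, without high Y-linked counts and without double-knockout replicates 1 and 2, and was -0.11 to 0.37 with a library left out. The cause was not tested.

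Replicates 1 to 4 share only a number across genotypes (correlation of deviations -0.10 to 0.09 over 4 pairs). With the replicate block, 2 of the 10 genes rose and 0 fell, 4 and 7 other transport genes rose and fell, and 1581 genes were called in all. Of the other transport genes named for passing the test, *Spint1* and *Hsd11b2* lost their calls with this block. The log2 difference of *Scnn1g* to *Scnn1a* turned to -0.29 without high Y-linked counts. *Scnn1b* and *Scnn1g* had the fewest counts, 24 to 182 and 11 to 86, and the widest spread among double-knockout libraries (coefficients of variation 66.2% and 69.7%).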
